A study of Arabidopsis thaliana with 12 samples.

Results

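This report follows 3 Arabidopsis genes of cell proliferation through 24 h of cold. They are AT1G09200, a gene for histone H3, FBL17, an F-box protein of the cell cycle, and TCP15, a growth-regulating transcription factor. They were chosen by function, as genes of cell division and growth with a probe that carries 1 gene name, and they are 3 of the 689 genes that could be named in this way. AT1G09200 and TCP15 (locus AT1G69690) lie on chromosome 1 and FBL17 (locus AT3G54650) on chromosome 3 of the reference annotation. No coordinates are given, because no genome build is stated for the array.

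Total RNA of wild-type Arabidopsis thaliana, the thale cress, ecotype Columbia 0, was measured on 12 arrays of 3439 probes. In 1 group of 6 arrays, labelled ML_20C, the plants were kept in medium light at 20 °C. In the other group of 6, labelled ML_4C, plants spent 24 h at 4 °C in the same light, a treatment the submitters call photoinhibitory, that is, one that lowers photosynthesis by light damage to photosystem II. Both groups share genotype and light level, and the labels name neither the organ nor the age of the plants nor whether samples came from separate plants.

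Growth of a plant organ rests on dividing cells, and each division needs new histones to pack the copied DNA. Histone H3 is part of the core of every nucleosome, and AT1G09200 encodes the H3.1 form, which is laid down mainly during DNA replication. FBL17 gives substrate choice to a ubiquitin ligase of the SCF type, which marks inhibitors of cyclin-dependent kinases (the KRP proteins) for breakdown and so lets cells pass into S phase. TCP15 belongs to the class I TCP family, named after TB1, CYCLOIDEA and PCF, whose members bind promoters of cell cycle and growth genes and shape leaf growth and endoreduplication, the copying of DNA without division.

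Values are linear intensities that had been scaled before deposit, with array means between 1.02 and 1.09. Array medians were at least 0.536 in the 20 °C group and at most 0.315 in the 4 °C group. In each group arrays 1 and 2, 3 and 4, and 5 and 6 resembled each other. Between arrays of different pairs, deviations from the group mean all correlated below 0, a sign that subtracting the group mean favours by itself. Within such pairs they correlated at 0.795 to 0.915 at 20 °C and at 0.202 to 0.432 at 4 °C. Means and SDs below are therefore over 3 pair means per group. The number of arrays limits the precision. A p-value here covers no more than the spread among the arrays or pairs, part or all of which may be technical. If a pair holds repeats of 1 RNA, the p-values over 12 arrays come out too small, and pair-mean values are therefore given beside them.

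All 3 genes had lower deposited intensities at 4 °C. TCP15 fell 3.36-fold, AT1G09200 fell 2.56-fold and FBL17 fell 2.12-fold, each as a ratio of geometric means, and each passed limma's test at an adjusted p of 0.05 with 12 arrays and with pair means. Most of the array moved the same way. Among 3378 probes with a value above 0 somewhere, 59.9% were called lower with 12 arrays and 49.6% with pair means. The median log2 change over these probes was -0.74. The call for TCP15 held under each of 4 ways to scale the arrays to each other, while the calls for AT1G09200 and FBL17 held only as deposited.

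**Figure D1:**
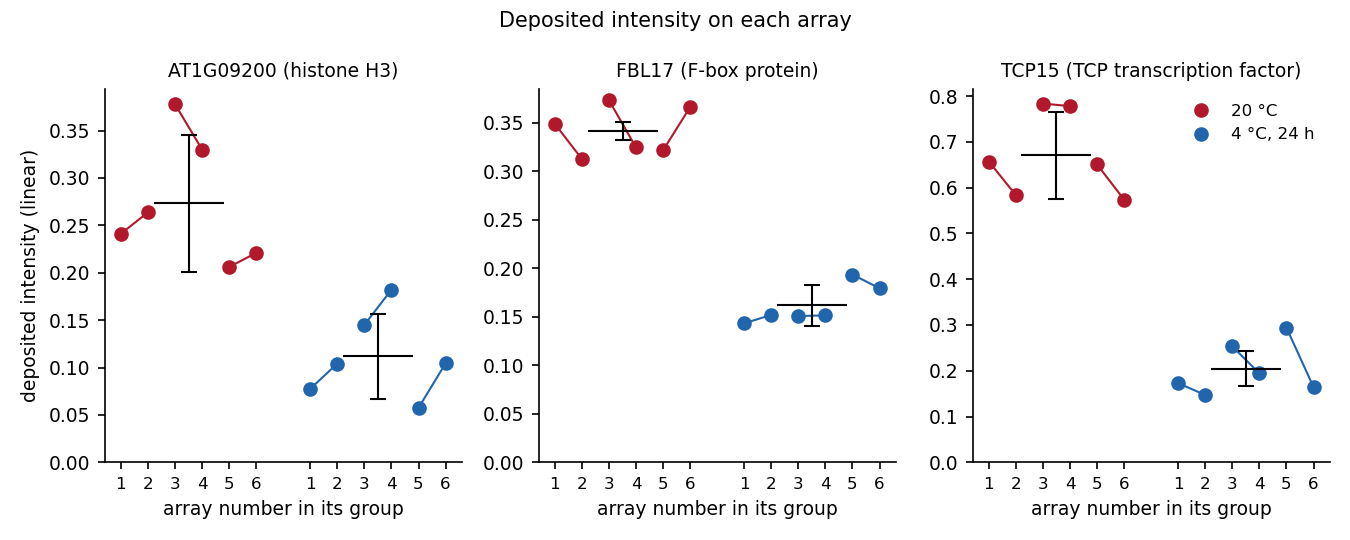
Deposited intensity (linear scale, from 0) of AT1G09200, FBL17 and TCP15 on each of the 12 arrays. Points are arrays, coloured lines join the arrays of a pair, and black bars show the mean and SD over 3 pair means. In each gene all 6 arrays at 4 °C lie below all 6 at 20 °C, as in 48.9% of the 3378 probes.

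TCP15 had the largest fall of the 3 genes as deposited. At 20 °C its intensity had a lowest value of 0.574, a median of 0.654 and a highest value of 0.784 over 6 arrays. At 4 °C these were 0.147, 0.183 and 0.294. The groups did not overlap, and the lowest array at 20 °C stood clearly above the highest at 4 °C. Pair means gave 0.671 ± 0.0951 at 20 °C and 0.204 ± 0.0385 at 4 °C (SD, n = 3). Its log2 change was -1.75 ± 0.17 (SE) with an adjusted p of 2.38e-06 over 12 arrays in limma, and -1.75 ± 0.20 over pair means (adjusted p = 0.00111). Groups that do not overlap in this direction were common on this array, at 48.9% of the probes.

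The arrays of a pair were less alike for TCP15 in the cold. On the log2 scale the SD within pairs was 0.102 at 20 °C and 0.388 at 4 °C, against 0.199 and 0.271 between pair means. The same held for AT1G09200, with 0.104 and 0.414 within pairs, while FBL17 went the other way, with 0.130 and 0.0561. For TCP15 the widest gap was between array 5, at 0.294, and array 6, at 0.164. Leaving out any 1 array kept the log2 change between -1.86 and -1.66, and leaving out any 1 pair kept it between -1.83 and -1.59, with the call kept in each of these settings.

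FBL17 was the steadiest of the 3 at 20 °C. There its intensity had a lowest value of 0.313, a median of 0.337 and a highest value of 0.373. At 4 °C these were 0.143, 0.152 and 0.194, with arrays 5 and 6 above the other 4. The groups did not overlap, as in 48.9% of all probes. Pair means were 0.341 ± 0.00938 at 20 °C and 0.162 ± 0.0215 at 4 °C (SD, n = 3), so the SD between pair means was 2.75% of the mean at 20 °C and 13.3% at 4 °C. Over the 6 single arrays the SD was 0.0252 at 20 °C and 0.0199 at 4 °C. On the log2 scale the SD within pairs was 0.130 at 20 °C and 0.0561 at 4 °C, against 0.0392 and 0.185 between pair means. The log2 change was -1.08 ± 0.09 (SE) with an adjusted p of 6.72e-07 over 12 arrays in limma, and the adjusted p was 0.00194 over pair means.

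AT1G09200, the histone gene, was the most variable of the 3. At 20 °C its intensity had a lowest value of 0.206, a median of 0.252 and a highest value of 0.378. At 4 °C these were 0.0575, 0.104 and 0.182. The groups did not overlap, as in 48.9% of all probes, and only a narrow gap separated the lowest array at 20 °C from the highest at 4 °C. Arrays 3 and 4 were the highest of their group at both temperatures, with pair means of 0.354 at 20 °C and 0.164 at 4 °C, against 0.213 to 0.252 and 0.0809 to 0.0909 in the other pairs. Over pair means the level was 0.273 ± 0.0725 at 20 °C and 0.112 ± 0.0451 at 4 °C (SD, n = 3). The log2 change was -1.36 ± 0.27 (SE) with an adjusted p of 0.000667 over 12 arrays in limma, and -1.36 ± 0.34 over pair means (adjusted p = 0.0186). Other loci encode the same or nearly the same H3 protein, which its probe may bind as well, and the value is uncertain as a measure of this locus alone. RNA of whole samples cannot tell fewer dividing cells from less of a transcript per cell.

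The fall of each gene was read against that of all probes. Relative to the median change of the 3378 probes, TCP15 lay at -1.005 on the log2 scale, AT1G09200 at -0.61 and FBL17 at -0.34. Among these probes 19.2% had a lower log2 change than TCP15, 29.6% a lower one than AT1G09200 and 38.0% a lower one than FBL17. Thus each gene stood on the lower side of the array without being near its end. The median log2 change also moved with brightness. When the 3107 probes above 0 on all arrays were split into 10 equal groups by mean intensity, it went from -0.99 among the dimmest to 0.33 among the brightest probes. FBL17 and AT1G09200 were in the second dimmest group, whose median log2 change was -0.95, and TCP15 was in the fifth, whose median was -0.93. From these medians FBL17 differed by -0.14, AT1G09200 by -0.41 and TCP15 by -0.82 on the log2 scale.

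**Figure D2:**
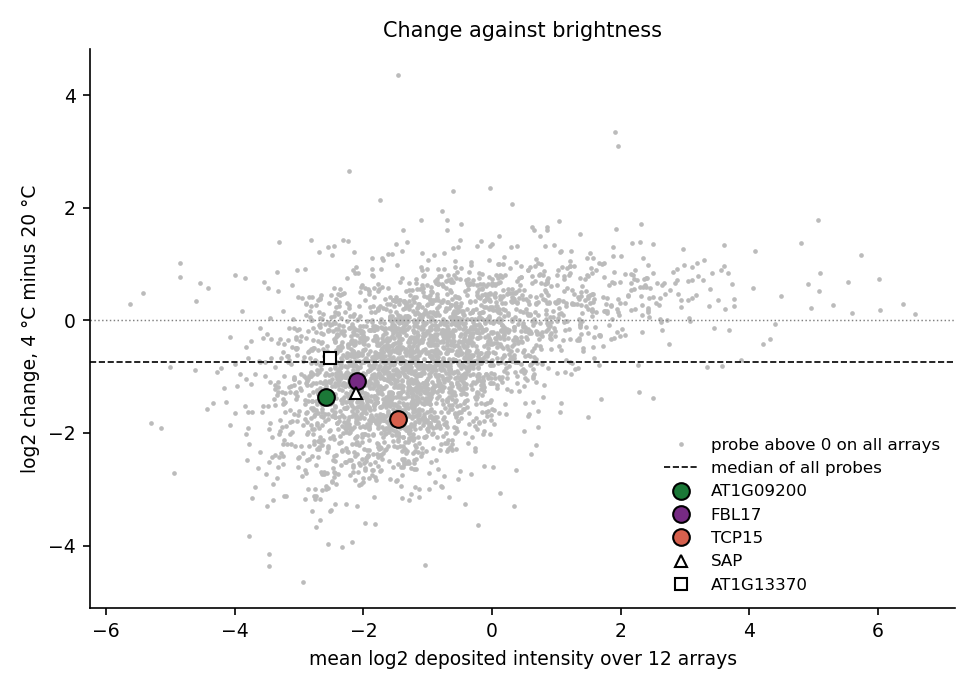
Log2 change of deposited intensity (4 °C minus 20 °C) against mean log2 intensity over 12 arrays for the 3107 probes above 0 on all arrays. The dashed line is the median change of the 3378 probes above 0 somewhere, at -0.74. Coloured circles mark the 3 genes, and open symbols mark SAP and AT1G13370. TCP15 lies farthest below the line, and FBL17 nearest to it among the 3.

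Scaling the arrays to each other in other ways kept the call for TCP15 and ended those for AT1G09200 and FBL17. The median log2 change of all probes became 0.17 when each array was centred on its median, 0.05 after quantile normalization and -0.00043 after cyclic loess. TCP15 passed as lower in each of the 8 fits made from 4 scalings with 12 arrays or pair means, with log2 changes from -1.75 as deposited to -0.77 after cyclic loess and adjusted p-values of at most 0.0336. Of the 3378 probes, 15.0% were called lower in all 8 fits, and of the 674 named genes above 0 somewhere 14.7%. The share called lower was 26.5%, 30.4% and 30.7% of probes over 12 arrays under the 3 added scalings in the order above, and 18.9%, 20.5% and 20.8% over pair means. AT1G09200 and FBL17 passed in 2 of the 8 fits, those on deposited values. AT1G09200 stood at -0.44 on the log2 scale after median centring, -0.13 after quantile normalization and -0.20 after cyclic loess. FBL17 stood at -0.17, -0.0035 and 0.012. After quantile normalization with 12 arrays, the 95% confidence interval of the log2 change ran from -0.23 to 0.23 for FBL17, from -0.66 to 0.39 for AT1G09200 and from -1.21 to -0.43 for TCP15.

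**Figure D3:**
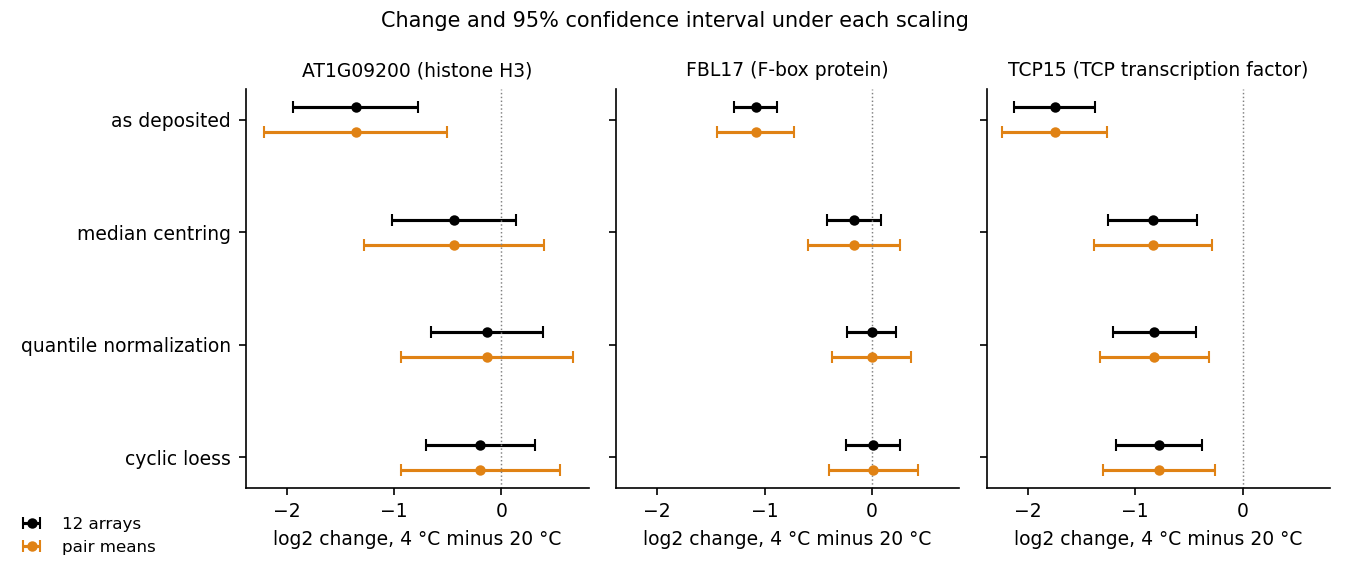
Log2 change (4 °C minus 20 °C) of the 3 genes with its 95% confidence interval under 4 scalings. Black points are fits over 12 arrays and orange points fits over pair means. Only for TCP15 do all 8 intervals lie below 0, while those of AT1G09200 and FBL17 include 0 under every scaling other than the deposited one.

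The place of a gene among the probes of its own array does not depend on how arrays are scaled, as long as the order of probes is kept. This measure was chosen after the values were seen and is given as a description. TCP15 exceeded 57.4% ± 6.16 of the 3378 probes at 20 °C and 35.7% ± 7.25 at 4 °C (SD over pair means, n = 3). By array its percentile ran from 49.6 to 64.7 at 20 °C and from 25.0 to 51.5 at 4 °C, so that array 5 at 4 °C overlapped the lowest array at 20 °C. FBL17 stood at 28.5% ± 0.903 and 28.6% ± 5.85, and AT1G09200 at 21.2% ± 6.89 and 19.4% ± 7.01. For both of these genes the difference between groups was smaller than the SD between pair means.

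**Figure D4:**
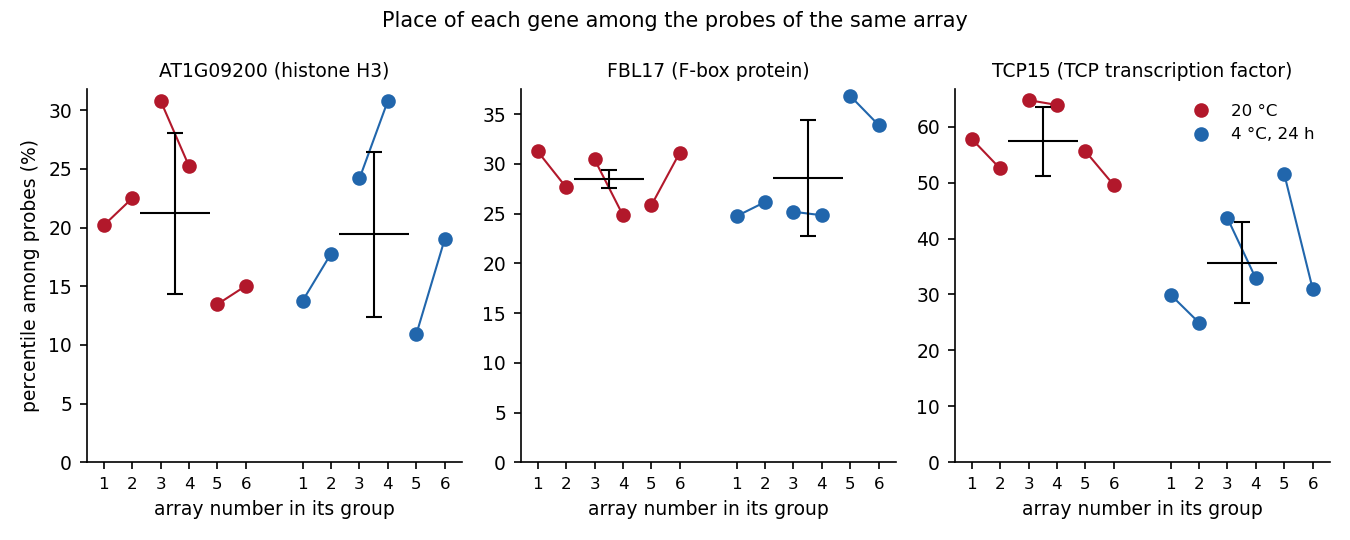
Percentile of AT1G09200, FBL17 and TCP15 among the 3378 probes of the same array, for each of the 12 arrays. Points are arrays, coloured lines join the arrays of a pair, and black bars show the mean and SD over 3 pair means. TCP15 had a mean of 57.4 at 20 °C and 35.7 at 4 °C, and the ranges of the groups overlapped in all 3 genes, for TCP15 through array 5 at 4 °C.

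Whether the genes fell by different amounts was tested on the ratio of their intensities within each array, which a constant scaling factor leaves as it is. The exact two-sided permutation test over 12 arrays can give no p below 0.00216. The ratio of TCP15 to FBL17 fell by 0.67 on the log2 scale (1.59-fold, SE 0.164), from a mean of 0.97 at 20 °C to 0.30 at 4 °C. The exact p was 0.00433, or 0.0130 adjusted over the 3 ratios. Its values ran from 0.65 to 1.26 at 20 °C and from -0.13 to 0.75 at 4 °C, and the groups overlapped because array 3 at 4 °C stood above array 6 at 20 °C. After quantile normalization the change of this ratio was -0.82, with the same adjusted p of 0.0130. Over pair means the groups did not overlap, but 3 pairs against 3 cannot go below an exact p of 0.1, which is what this ratio gave (0.300 adjusted).

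The other 2 ratios did not pass. That of AT1G09200 to FBL17 differed by -0.27 on the log2 scale (SE 0.318, adjusted exact p = 0.429), and that of TCP15 to AT1G09200 by -0.39 (SE 0.332, adjusted exact p = 0.409). After quantile normalization the latter was -0.69 (SE 0.302, adjusted exact p = 0.0779) and the former -0.13 (adjusted exact p = 0.690). Array 5 at 4 °C, where AT1G09200 had its lowest value and TCP15 its highest of that group, gave the extreme of both. With arrays as samples, the fall of TCP15 was thus larger than that of FBL17. The p-value for this comes out too small if a pair holds repeats of 1 RNA, and pair means could not show the difference. A larger fall than that of the histone gene was not shown.

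**Figure D5:**
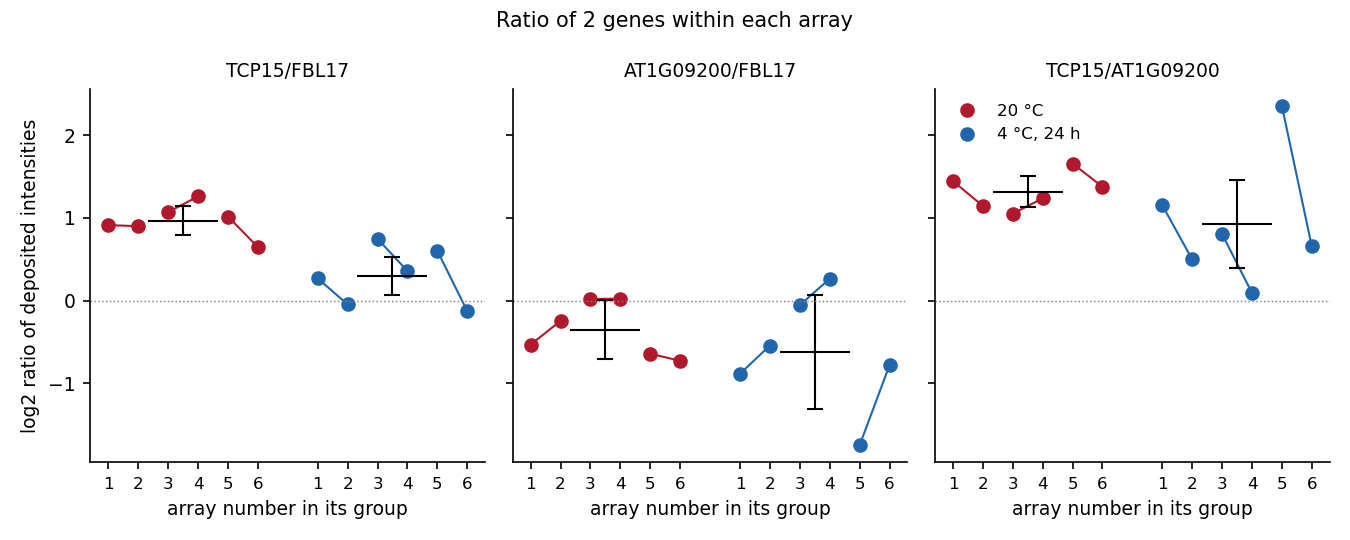
Log2 ratio of deposited intensities of 2 genes within each array, for the 3 pairs of genes. Points are arrays, coloured lines join the arrays of a pair, black bars show the mean and SD over 3 pair means, and the dotted line marks a ratio of 1. TCP15/FBL17 is lower at 4 °C (mean log2 0.30) than at 20 °C (0.97), and the other ratios overlap widely.

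Little else of the cell cycle could be read on single-name probes. Of 332 entries in 7 lists of cell proliferation genes, 6 were measured on such a probe, namely the 3 genes, AT5G65360 and AT1G13370 of the histone list, and SAP of the leaf growth list. None of 52 entries for cyclins and cyclin-dependent kinases, 63 for S-phase regulators and replication, or 62 for the anaphase promoting complex, mitosis and cytokinesis was among them. FBL17 was the only one measured of 28 entries for kinase inhibitors and the F-box route to them, and TCP15 the only one of 28 for the TCP family. Transcripts of the others may have been measured on probes with several or no names.

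Of the 3 measured histone genes, 1 was called lower as deposited (AT1G09200), 0 higher and 2 not, over 12 arrays and over pair means alike, where 59.9% and 49.6% of all probes were called lower. None of the 3 was called under the other scalings. The median log2 change of the 3 as deposited was that of AT1G13370, at -0.67, against -0.74 for all probes. AT5G65360 was at 0 on most arrays, so its change and its missing call rest on values put in for 0. It therefore adds nothing to these counts or to the median. AT1G13370, another H3 gene, had a lowest value of 0.174, a median of 0.229 and a highest value of 0.251 at 20 °C, and 0.0782, 0.129 and 0.363 at 4 °C. Array 4 at 4 °C was above every array at 20 °C, so the groups overlapped. Its log2 change of -0.67 ± 0.32 (SE) did not pass in limma over 12 arrays (adjusted p = 0.0738) or pair means (adjusted p = 0.0982), and it was 0.24 to 0.56 under the other scalings. AT5G65360, a further gene for H3.1, was listed at 0 on all 6 arrays at 20 °C and on 3 of the 6 at 4 °C, with a highest value of 0.0341, so no fold is given.

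SAP, an F-box protein known to promote organ size by marking repressors of leaf meristemoid division for breakdown, was the only measured gene of 50 entries for leaf growth. Its intensity had a lowest value of 0.293, a median of 0.328 and a highest value of 0.498 at 20 °C, and 0.0900, 0.151 and 0.201 at 4 °C. These groups did not overlap, as in 48.9% of all probes. It fell 2.44-fold as deposited, a log2 change of -1.29 ± 0.20 (SE) with an adjusted p of 0.000103 over 12 arrays and 0.00855 over pair means in limma. Like FBL17 and AT1G09200 it passed in 2 of the 8 fits, with log2 changes of -0.37 after median centring, -0.20 after quantile normalization and -0.19 after cyclic loess. As in AT1G09200 and TCP15, arrays 3 and 4 at 20 °C were its highest.

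Markers of organs and dividing tissue were sparse. None of 12 meristem and 10 root markers was measured on a single-name probe, so the part of dividing tissue in these results was not tested. Of 14 entries for flower and pollen SPL was measured, a regulator of sporogenous cells in anthers and ovules. It fell from 0.691 ± 0.0269 to 0.287 ± 0.0154 (SD, n = 3). As deposited it had a log2 change of -1.27, with adjusted p-values of 2.75e-08 over 12 arrays and 0.000679 over pair means in limma. Its log2 change was -0.36 after median centring, -0.41 after quantile normalization and -0.38 after cyclic loess, and its call was lost over pair means with median centring (adjusted p = 0.0886) and cyclic loess (adjusted p = 0.0598). Of 15 green leaf markers 6 were measured and all were above 0 on every array. Their summed intensity ran from 43.1 to 51.9 at 20 °C and from 50.4 to 63.6 at 4 °C, of which PSBW, a photosystem II subunit, made up most. As deposited 4 of the 6 were called lower and 1 higher over 12 arrays, and 3 lower and 1 higher over pair means, against 59.9% and 49.6% of all probes called lower. With median centring over 12 arrays 1 of the 6 was called lower, PSAN, and 2 higher, PSBY and PSBW, all of them photosystem subunits. That fit called 26.5% of all probes lower and 39.5% higher. After quantile normalization and after cyclic loess over 12 arrays, PSAN, SBPASE and LHB1B2 were called lower. PSBY, PSBW and PRK were not called in these fits, which called 30.4% and 30.7% of all probes lower.

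The genes with the most similar pattern were sought among 610 named genes above 0 on all arrays, by Pearson correlation of quantile-normalized log2 values over the 12 arrays. These are descriptions, since the arrays of a pair are not independent and the temperature difference enters the correlation. For TCP15 they were SPL at 0.936, AT3G50880 at 0.936 and AT3G53470 at 0.934. These 3 passed as lower as deposited, as did 62.9% of named genes over 12 arrays and 51.9% over pair means. For AT1G09200 they were AT1G12100 at 0.906, AT1G48570 at 0.821 and AT5G63290 at 0.819. The last of these had a deposited log2 change of -0.02 (adjusted p = 0.873 over 12 arrays and 0.927 over pair means in limma), so a high correlation here did not require a similar deposited change. For FBL17 the closest were AT3G13180 at 0.745, CML41, a calmodulin-like protein, at 0.696 and AT3G54930 at 0.662. Among the 3 genes themselves the correlations were low, at 0.158 between AT1G09200 and TCP15, 0.191 between FBL17 and TCP15 and -0.376 between AT1G09200 and FBL17. SAP correlated at 0.612 with TCP15, 0.548 with AT1G09200 and 0.025 with FBL17.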

How the data were processed

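The authors deposited a linear intensity for each probe on each array, from 0 to 100. The sources used here do not say how it was scanned, corrected for background and scaled. Names came from the platform annotation, matched by gene identifier to the assembly TAIR10.1. There were 692 probes with 1 name (690 matched), 870 with several and 1877 with none here, 3439 in all. The 2 probes of 1 gene were averaged, leaving 3438 features, called probes in the text, and 60 at 0 on all arrays were left out of counts.

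Intensities were used as deposited and transformed to log2, a 0 being replaced by the smallest positive value of its array. The main comparison used limma 3.58.1 (lmFit and eBayes, R 4.3.3), two-sided, 4 °C minus 20 °C, with Benjamini-Hochberg adjustment over all 3438 features and a threshold of 0.05. The scripts were tested on simulated data. Ratios were tested with exact permutation in scipy 1.17.1. Over the probes above 0 on all arrays, arrays with the same number in both groups did not deviate together (correlations of -0.232 to 0.137). The numbers were therefore not taken to pair them, though pairing for single genes was not tested. The genes, lists and tests were chosen with earlier results of these data known. Besides the 3 genes, the text names every measured list member where a list has 4 or fewer, and the 3 genes most like each. SPL and the 6 measured green leaf markers were named from the marker lists. Alternatives were other scalings, pair means, pairs as a random block, the replicate number as a block, no dim probes, an offset of 0.0680, another variance model, and leaving out arrays or pairs.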

Additional observations from a re-analysis of the deposited data

Results flagged for a closer look

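Among 29 groups of 6 arrays tested over 15 named genes, 3 held a single array far from the others. Chance flags about 1 in 20 where the 6 values are independent and normal. Arrays of a pair are alike and AT5G65360 holds zeros, so the count cannot be read against that rate. AT5G65360 reached 0.0341 on array 1 at 4 °C, while the next highest array of that group stood at 0.00205 and 3 were at 0. AT1G13370 reached 0.363 on array 4 at 4 °C, against 0.174 for the next highest. AT3G50880 stood at 0.303 on array 6 at 4 °C, below the next lowest at 0.372. No such array was found for AT1G09200, FBL17, TCP15 or SAP.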

How the results depend on the processing

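TCP15 kept its direction and its call under every alternative run. AT1G09200 lost its call with 12 arrays and with pair means after median centring (log2 change -0.44), quantile normalization (-0.13) and cyclic loess (-0.20). FBL17 lost it after median centring (-0.17) and quantile normalization (-0.0035), and its sign turned after cyclic loess (0.012). These scalings remove the general fall by construction. The ratio of TCP15 to FBL17 kept its change of -0.67 over pair means, where the test cannot pass. The 2442 probes called with 12 arrays became 1350 with quantile normalization of pair means and 1349 with cyclic loess of pair means. As deposited 420 were higher and 2022 lower. Median centring gave 1335 higher and 896 lower, quantile normalization 1083 higher and 1028 lower, and cyclic loess 1039 higher and 1038 lower. Leaving out 1 array gave log2 changes of -1.52 to -1.18 for AT1G09200 and -1.14 to -1.05 for FBL17, and leaving out 1 pair gave -1.68 to -1.14 and -1.19 to -1.02, with all calls kept. Pairs as a random block (correlation 0.712), the offset and the other variance model kept all 3 calls. With the replicate number as a block the 3 genes also kept their calls (adjusted p of 0.000188 for AT1G09200, 8.07e-05 for FBL17 and 4.65e-05 for TCP15) and 2419 probes were called. The SE with this block was 0.140 for AT1G09200, 0.130 for TCP15 and 0.0919 for FBL17. Without it the SE was 0.267, 0.172 and 0.0913. The numbers share no origin in the labels, and 2 of 12 arrays were closest to the array of the same number. AT1G09200 is among the 860 dimmest probes, so leaving these out gave it no value. Signal over background could not be judged, since no background values are given.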

Other observations

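Probes with several names were not used for any gene, but 6 of them carry at least 1 name from the cell proliferation lists. They were looked at after the values of the named genes were seen. Of 4 with a histone H3 name, 2 were called lower over 12 arrays and 1 over pair means, against 59.9% and 49.6% of all probes, with log2 changes from -1.22 to -0.32 as deposited. None of the 4 was called lower after median centring, quantile normalization or cyclic loess, where the log2 changes of 3 of them were above 0. Of these 3, 1 was called in both directions. As deposited its log2 change was -0.40, called lower over 12 arrays (adjusted p = 0.00328 in limma) but not over pair means (0.0703). It passed as higher in the other 6 of the 8 fits, with 0.51 after median centring, 0.56 after quantile normalization and 0.58 after cyclic loess. Under these 3 scalings in that order, 39.5%, 32.1% and 30.8% of all probes were called higher over 12 arrays. Over pair means the shares were 30.0%, 19.5% and 19.1%. The probe with a name from the mitosis list had 0.281 ± 0.0198 at 20 °C and 0.0779 ± 0.00765 at 4 °C (SD, n = 3). It was called lower in all 8 fits, with log2 changes from -1.93 to -0.69, as were 15.0% of all probes. The probe with a cyclin name was listed at 0 on 5 of 6 arrays at 20 °C and 2 of 6 at 4 °C.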
